A study of Mus musculus with 8 samples.

Results

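The nuclear-encoded subunits of oxidative phosphorylation were examined across all 4 groups of immature myeloid cells (IMCs). Genes were taken by name from the raw count table: the Ndufa, Ndufb, Ndufc, Ndufs and Ndufv genes of complex I, Sdha to Sdhd of complex II, the Uqcr genes of complex III, Cycs, which encodes cytochrome c, the Cox5 to Cox8 genes of complex IV, and every gene whose symbol starts with Atp5, of complex V. Of 24062 genes in the table, 81 carried such a name, and 74 of these had a mean of at least 5 CPM over the 8 libraries, where CPM is a gene's count scaled to a common library size. These 74 members comprised 35 genes of complex I, 4 of complex II, 8 of complex III, Cycs, 10 of complex IV, 15 of complex V and Atp5sl. Atp5sl is named after ATP synthase, but it is known today as Dmac2, a complex I assembly factor, and it was left out of the sums for complex V. Ndufa4, named after complex I, was counted with complex IV, where its protein resides.

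Marrow of C57BL/6 mice aged 2 months was cultured for 3 days in M-CSF, the growth factor of the monocyte lineage, at 40 ng/mL to obtain the IMCs, and each library was made from 4 µg of total RNA. PARP1 WT mice carried PARP1 flox/flox alleles without Cre, and PARP1CKO mice carried the same alleles together with lysozyme-Cre. PARP2 WT and PARP2CKO mice were PARP2 flox/flox without and with lysozyme-Cre. The lysozyme promoter drives Cre in the myeloid lineage, so other marrow cells keep the floxed gene, and the controls lacked Cre itself. Each group had 2 libraries, described as biological duplicates, with no statement of how many animals each came from. In the main fit, p-values rest on the spread between libraries of a group, pooled over all 4 groups, and not on a known number of animals. The study compared each deletion with its own WT group, described as littermate controls, to ask what PARP1 and PARP2 do in these cells.

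The libraries held 37852450 to 61845125 counts on genes. Parp1 lay at 202 and 211 CPM in PARP1 WT, against 63.2 and 59.1 CPM in PARP1CKO. Parp2 lay at 48.2 and 48.3 CPM in PARP2 WT, against 25.7 and 25.6 CPM in PARP2CKO. Both labels therefore fitted the targeted gene within its own line. In the PARP2 line, Parp1 lay at 155 CPM in PARP2 WT replicate 2, below both PARP1 WT libraries. In PARP2 WT replicate 1 and both PARP2CKO libraries it lay above them. Parp2 lay at 39.0 and 40.8 CPM in PARP1 WT, below PARP2 WT (log2 difference 0.27, edgeR quasi-likelihood test, adjusted p = 0.0159). Of 11 listed markers of immature myeloid cells, 10 had a row, and Ly6g had none. They summed to between 3640 and 4070 CPM in the 8 libraries, with Csf1r at 1130 to 1270 and Itgam at 881 to 1040 CPM. Of 7 listed macrophage markers 6 had a row, without Adgre1. They summed to between 2700 and 3060 CPM in the PARP1 line and between 3180 and 3410 CPM in the PARP2 line. The 6 B cell markers summed to between 27.6 and 40.0 CPM in the 4 libraries of the PARP1 line and to between 7.88 and 10.7 CPM in the 4 of the PARP2 line. Erythroid markers showed the same division, at 3.28 to 6.49 against 1.49 to 1.88 CPM, with the near-identical copies Hba-a1 and Hba-a2, whose counts were the same in every library, taken once. Basophil and mast cell markers summed to 12.5 to 18.1 CPM in the PARP1 line and to 6.42 to 10.6 CPM in the PARP2 line, osteoclast markers to 19.2 to 26.2 and 31.5 to 53.4 CPM, and T and NK cell markers to 2.01 to 4.38 CPM over all libraries. None of the listed markers in the table was at 0 in every library. In bulk RNA, fewer cells of a type and less RNA per cell cannot be told apart.

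Complex I takes electrons from NADH and complex II from succinate, complex III passes them from ubiquinol to cytochrome c, and complex IV hands them to oxygen. Complexes I, III and IV pump protons across the inner mitochondrial membrane, and complex V, the ATP synthase, lets the protons back to make ATP. The subunits come from both the nuclear and the mitochondrial genome, and many of the nuclear genes are known targets of the transcription factors NRF1, GABP of the ETS family, YY1 and the oestrogen-related receptors, with the coactivator PGC-1. Macrophages and their precursors are known to shift the balance between glycolysis and respiration as they mature or are activated.

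Promoters are shown because these genes are transcribed from many separate loci, and some carry sequence motifs that the name rule did not use. RefSeq promoters (GRCm38.p6, 250 bases before to 50 after the start) were at hand for 63 of the 74 members. They were searched on both strands for GCGCANGCG (the core of the NRF1 motif), CCGGAAG (ETS), AAGATGGCG (YY1) and TCAAGGTCA (oestrogen-related receptor). The NRF1 letters stood in 21 of 63 member genes (33.3%) and in 7.03% of the 27025 genes of the RefSeq promoter set. That set includes noncoding genes and was not limited to genes expressed in these cells. ETS letters stood in 16 members (25.4% against 9.93%), YY1 letters in 8 (12.7% against 1.64%) and receptor letters in 2 (3.17% against 0.466%). At least 1 motif was present in 37 members (58.7%) and in 16.9% of all genes. A match is a description of letters, not of a bound site. Stretches of 8 promoters follow, 5′ to 3′ on the gene's strand, with the motif letters in capitals. Cycs and the 3 copies in Sdha show the NRF1 letters, Atp5g2 and Atp5k carry them in a palindrome that matches on both strands, Sdhd pairs NRF1 with ETS, Atp5j pairs YY1 with ETS, Ndufs3 has ETS, and Atp5g3 has the receptor motif on the reverse strand.
Cycs, chr6:50566612-50566640, minus strand: catgctagctCGCATGCGCgcgcacaaac
Sdha, chr13:74350241-74350348, minus strand: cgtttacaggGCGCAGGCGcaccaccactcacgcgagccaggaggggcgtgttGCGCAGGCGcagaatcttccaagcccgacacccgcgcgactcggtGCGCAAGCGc
Atp5g2, chr15:102671070-102671099, minus strand: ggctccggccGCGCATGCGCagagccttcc
Atp5k, chr5:108434430-108434459, minus strand: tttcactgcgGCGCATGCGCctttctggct
Sdhd, chr9:50603879-50603938, minus strand: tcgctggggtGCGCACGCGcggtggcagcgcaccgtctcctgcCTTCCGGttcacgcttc
Atp5j, chr16:84835021-84835074, minus strand: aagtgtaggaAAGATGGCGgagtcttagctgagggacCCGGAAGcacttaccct
Ndufs3, chr2:90904732-90904758, minus strand: ccgcgtccgcCCGGAAGaagagtcact
Atp5g3, chr2:73911360-73911388, minus strand: tgttacaaagTGACCTTGAgcgtcttccc

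All 74 members together took between 0.744% and 0.781% of the counts of a library, or 7275 to 8092 CPM after scaling with TMM factors. Complex V made up the largest part, at 3101 to 3486 CPM, followed by complex I at 1766 to 1983, complex IV at 822.2 to 1008, complex III at 711.5 to 767.3, complex II at 597.1 to 641.4 and Cycs at 185.4 to 201.7 CPM. The ranges of complexes II and III did not overlap each other over the 8 libraries, nor did those of complexes III and IV. These sums exclude the subunits encoded in mitochondrial DNA, since 0 of those 13 genes had a row in the table used. They also exclude nuclear subunits that the name rule left out, among them Cox4i1 of complex IV (213 to 249 CPM) and Cyc1 of complex III (73.9 to 91.5 CPM).

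Levels between genes were compared per kilobase (kb) of merged exons. The median level was 53.4 CPM per kb over complex I, 79.8 over complex II, 96.2 over complex III, 111 over complex IV and 139 over complex V, and Cycs lay at 61.5. Per kb of the shortest coding transcript the medians were 72.7, 95.2, 115, 189 and 154 in the same order, so complex IV then stood above complex V. By merged exons the catalytic β and α subunits of the ATP synthase stood at the top, Atp5b at 461 and Atp5a1 at 325 CPM per kb, and Atp5b was highest with either length. Among the members of complex IV the leaders were the small subunits Cox8a (244) and Cox6b1 (215). In complex III they were Uqcrb (236) and the hinge protein gene Uqcrh (174), and in complex I the membrane-arm accessory genes Ndufa1 (125) and Ndufa3 (95.7 CPM per kb). Cox4i1 of complex IV, which the name rule left out, averaged 229 CPM over 765 merged exon bases. Per kb of merged exons it therefore stood above Cox8a. With the shortest coding transcript the leaders became Cox6b1 (376), Uqcrh (237) and Ndufa3 (154 CPM per kb). By merged exons within complex I, the 7 core genes had a median of 38.9 and the 28 accessory genes of 56.0 CPM per kb.

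The level of the lowest genes depended on the length as well. Ndufb2 lay at 2.61 CPM per kb of merged exons and at 25.1 per kb of its shortest coding transcript. The same shift applied to Atp5g1 (15.4 and 127), Sdhc (36.7 and 143), Uqcrq (33.1 and 149) and Cox7c (17.4 and 45.4 CPM per kb), whose merged exons include long alternative models. With the shortest coding transcript, Sdhc changed from the lowest to the highest gene of complex II. For Sdha, the flavoprotein of complex II, both lengths gave 107 CPM per kb, for the iron-sulphur subunit Sdhb 83.4 and for the membrane anchor Sdhd 76.3. Both lengths were the same for each of Sdha, Sdhb and Sdhd, so the choice of length could not change their order.

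**Figure D1:**
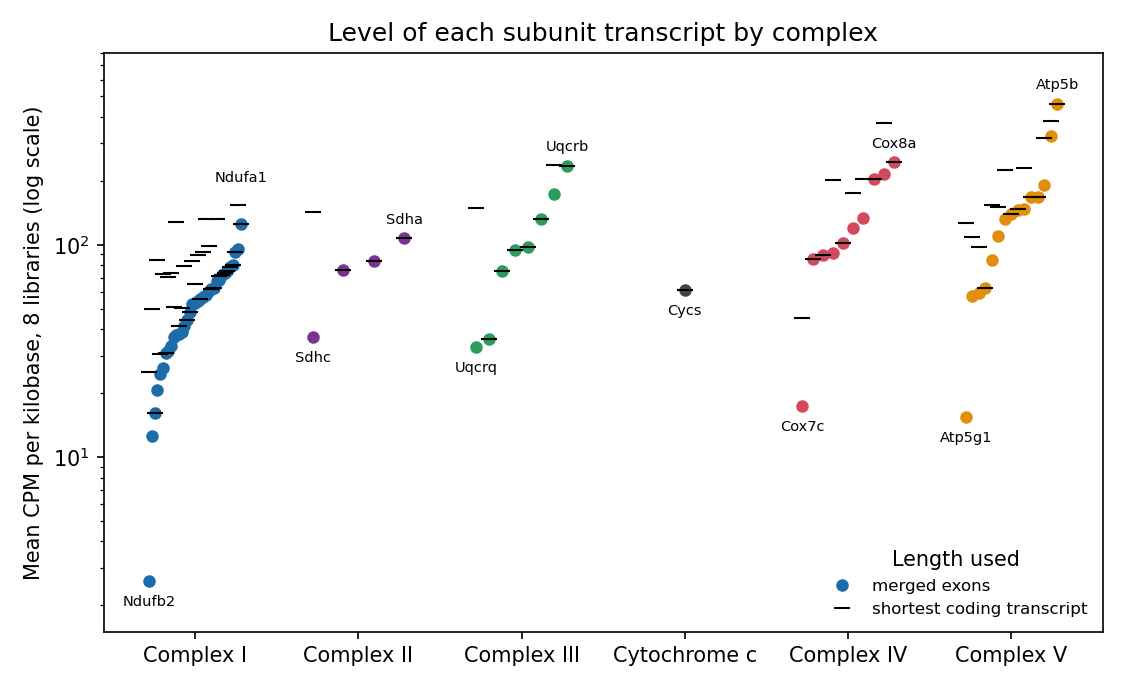
Mean level of each member over 8 libraries in CPM per kb (log axis), by complex, with points for merged exons and dashes for the shortest coding transcript. The highest and lowest member of each complex by merged exons are named. Atp5b was highest at 461 CPM per kb, and the dashes lie far above the points for Ndufb2, Sdhc, Uqcrq, Cox7c and Atp5g1. Atp5sl is not drawn.

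The level of a member varied little across the 8 libraries. The highest library exceeded the lowest by 1.16-fold for the median member, from 1.05-fold for Cox6c to 1.62-fold for Cox5b, and 72 of 74 members stayed under 1.5-fold. The exceptions were Cox5b and Cox8a, subunits of complex IV, and both owed their range to PARP1 WT replicate 1, the library with the fewest counts. Cox5b lay at 79.4 CPM in that library and between 106 and 129 CPM in the other 7, and Cox8a was there 1.3-fold below its next lowest library, with 153 CPM as its highest value. Ndufa6 (31.0 against 38.7 to 43.5 CPM), Ndufs7 (30.2 against 36.2 to 44.2), Cox6a1 (95.9 against 113 to 131) and Atp5g3 (86.4 against 101 to 127 CPM) were also at least 1.17-fold lower there than in any other library. Uqcrq followed, 1.16-fold below its next lowest library (50.2 against 58.2 to 71.6 CPM).

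**Figure D2:**
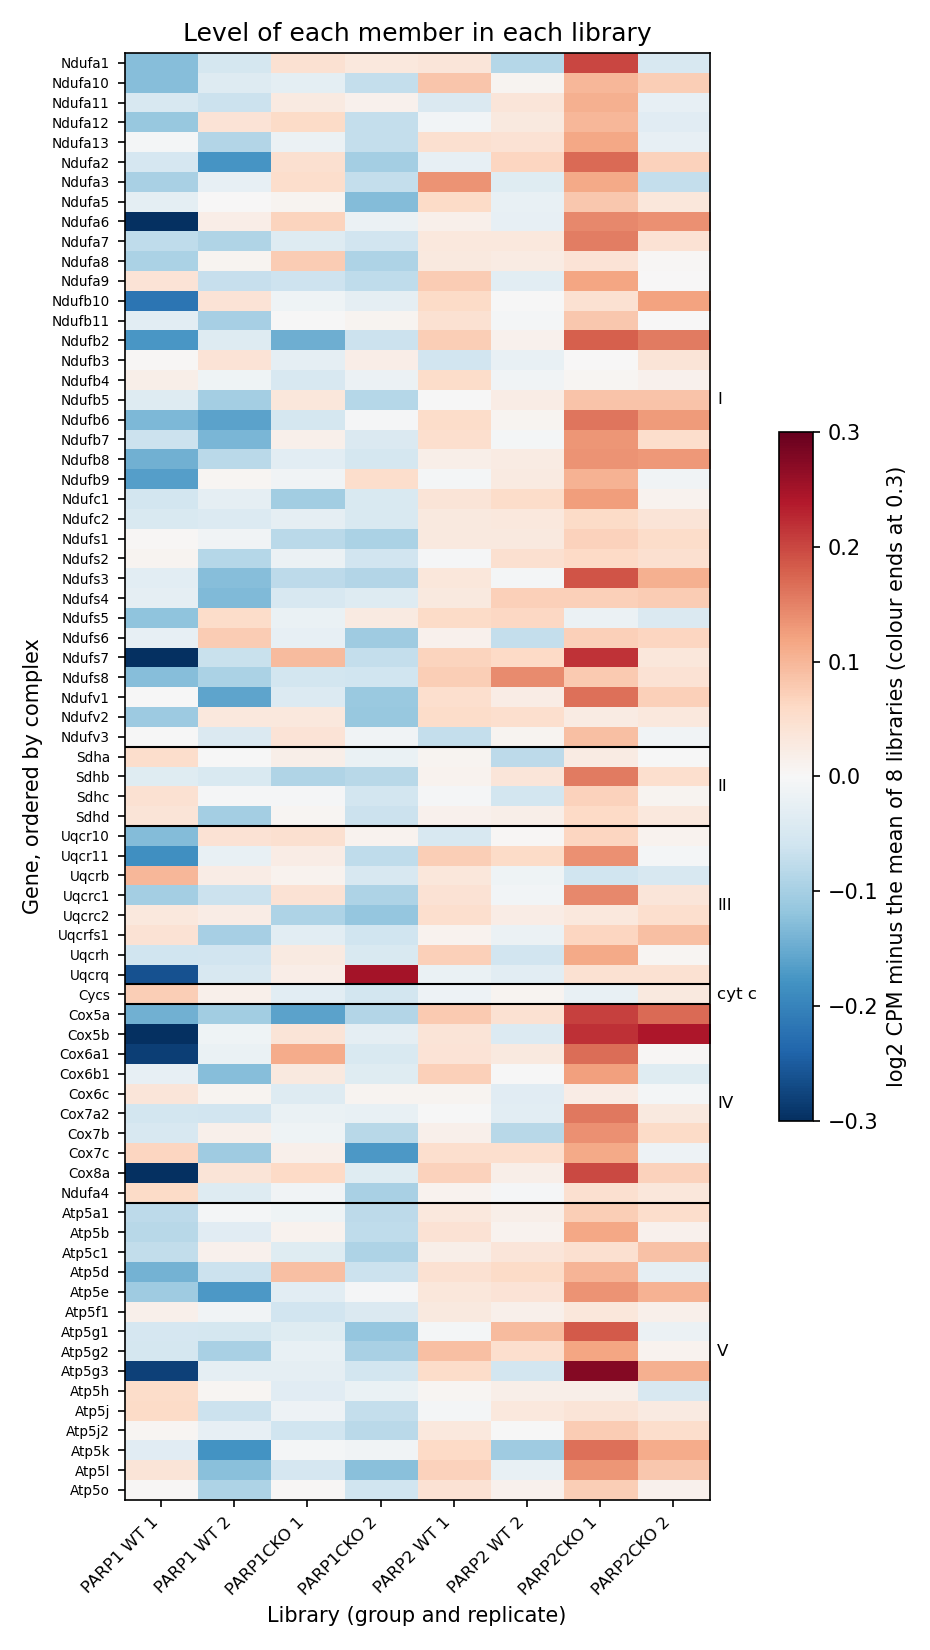
Heat map of 73 subunit genes (rows, by complex) in 8 libraries (columns), with colour for log2 CPM minus the gene's mean over the libraries, ending at 0.3 in each direction. PARP2CKO replicate 1 holds the highest value of 51 of the 74 members, and PARP1 WT replicate 1 holds the lowest of 25, among them Cox5b and Cox8a. Atp5sl is not drawn.

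Several subunits have alternative genes for different tissues, and in IMCs the general forms carried nearly all counts. The ring of subunit c in the ATP synthase can be made from Atp5g1, Atp5g2 or Atp5g3, whose mature proteins are known to be identical. Atp5g2 supplied between 41.7% and 45.8% of their summed CPM, Atp5g3 between 29.4% and 34.8%, and Atp5g1 between 22.6% and 24.8% over the 8 libraries. Per kb of the shortest coding transcript, Atp5g2 held 51.7% to 55.6%, Atp5g3 22.1% to 26.7% and Atp5g1 20.5% to 22.3%. With merged exons the share of Atp5g1 was 4.15% to 4.67%, so Atp5g2 led under both lengths while the share of Atp5g1 depended on the length.

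The 7 genes with a matching name but a mean under 5 CPM were Atp5s (3.8), Cox6a2 (3.3), Cox7a1 (2.4), Cox6b2 (0.266), Cox7b2, Cox8b and Cox8c, the last 3 with 0 counts in all libraries. Ndufb2, at 11.4 CPM, was the member nearest to the limit and Atp5s the nearest gene outside it. Cox6a2 and Cox7a1 are the heart and skeletal muscle forms of their subunits. Cox7a1 took 3.51% to 4.25% of the CPM of the Cox7a genes, beside Cox7a2, and Cox6b2, the testis form, took 0.0594% to 0.346% beside Cox6b1. Cox4i2 had 62 counts in all libraries against 92305 of Cox4i1, and the testis cytochrome c gene Cyct had 4 against 77048 of Cycs.

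The share of Cox6a2 ran from 1.27% to 4.76% of the Cox6a genes over the libraries. Its level was 4.16 and 3.39 CPM in PARP1 WT, then 3.55 and 5.66 CPM in PARP1CKO, and in the PARP2 line 2.71 and 2.77 CPM for WT and 1.69 and 1.97 CPM for PARP2CKO. Both PARP2CKO libraries lay below both PARP2 WT libraries, but the log2 difference of -0.59 (SE 0.233) did not pass the test across all genes (edgeR quasi-likelihood test, adjusted p = 0.954). Of its exon bases, 10.3% overlap Itgad on the opposite strand, and whether counting used the strand is not stated, so reads of the pair may not be separated.

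**Figure D3:**
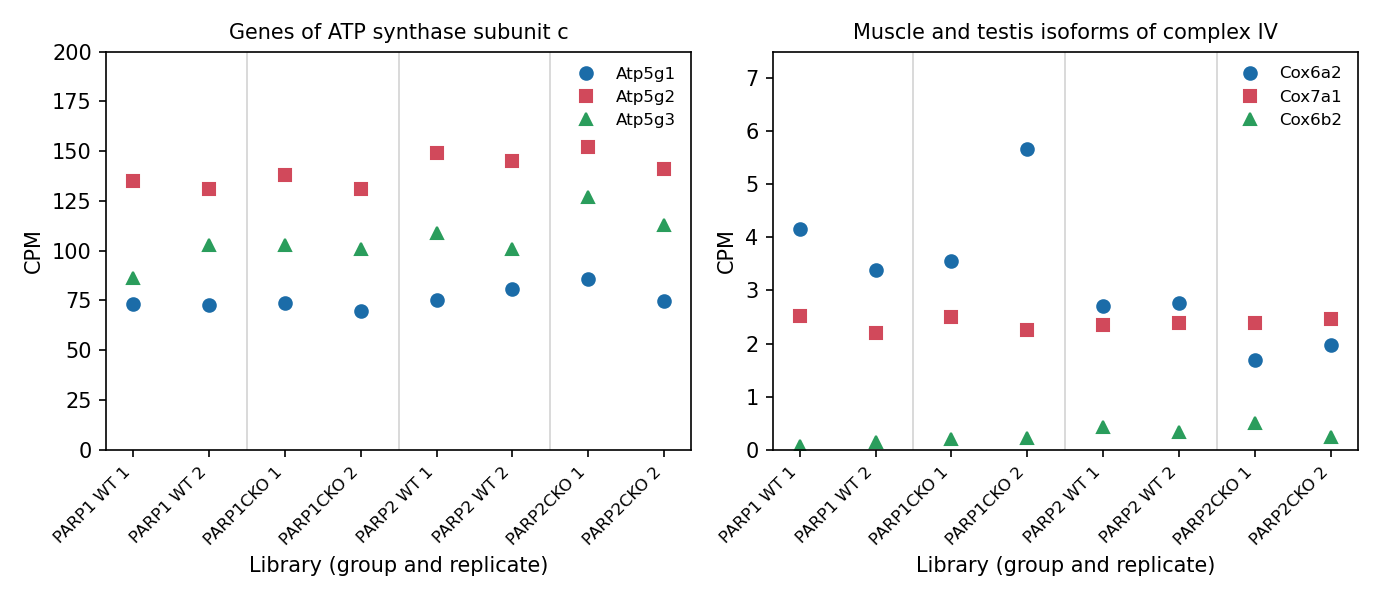
CPM in each of 8 libraries for the genes of subunit c (left) and for the tissue forms Cox6a2, Cox7a1 and Cox6b2 (right), with both axes starting at 0. Atp5g2 is highest of the subunit c genes in every library, and Cox6a2 runs from 1.69 CPM in PARP2CKO to 5.66 CPM in PARP1CKO.

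Deletion of PARP1 left the members close to their WT level. In PARP1 WT the members summed to 7354 ± 111 CPM, and in PARP1CKO to 7429 ± 190 CPM (mean ± SD, n = 2), a difference smaller than the spread of the libraries. The median log2 fold change of the members was 0.022, beside 0.0059 over all 13197 genes tested, and 62 of 74 members lay within 0.1 of 0 on the log2 scale. In the quasi-likelihood test of edgeR, with p-values adjusted over all genes by Benjamini-Hochberg, 0 members passed 0.05 (smallest adjusted p = 0.287), where 0.106% of all genes did. DESeq2 and the likelihood-ratio test also called 0. Unadjusted p-values under 0.05 were found for 4 members (5.41%), 2 higher and 2 lower, beside 11.3% of all genes. This count was 14 without PARP1 WT replicate 2 and 2 without PARP1CKO replicate 1 or either PARP2 WT library. Both PARP1CKO libraries lay above both WT libraries for 13 members (17.6%) and below them for 11 (14.9%), where the shares of all genes were 21.0% and 20.2%, so members were separated no more often than other genes. With 2 libraries against 2, an exact permutation test of a single value cannot go below a p of 0.333.

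The 4 members with an unadjusted p under 0.05 were Uqcrq, Uqcrc2, Atp5e and Ndufs1. Uqcrc2, a core protein of complex III on chromosome 7, was at 145 and 144 CPM in PARP1 WT, compared with 133 and 131 CPM in PARP1CKO. The replicates lay close together and the log2 fold change was -0.13 (SE 0.0363, adjusted p = 0.287). Its exons overlap Pdzd9 on the opposite strand over 26.6% of their bases. Uqcrq, a small subunit of complex III, was at 50.2 and 58.2 CPM in PARP1 WT, compared with 61.0 and 71.6 CPM in PARP1CKO, the largest difference of a member (0.29 on the log2 scale, SE 0.0829). This estimate ranged from 0.17 to 0.40 when 1 library was left out at a time, and was 0.18 without the low PARP1 WT replicate 1. Ndufs1, the largest iron-sulphur subunit of complex I, went from 107 and 106 to 101 and 100 CPM (log2 fold change -0.082). Atp5e, the ε subunit in the stalk of the ATP synthase, went from 24.3 and 23.2 to 25.6 and 26.1 CPM (log2 fold change 0.12). None of the 4 passed the adjusted test.

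By complex, PARP1CKO was above PARP1 WT for 25 of 35 genes of complex I (median log2 fold change 0.033) and below it for 3 of 4 genes of complex II (median -0.038). In complexes III, IV and V the members divided 5 to 3, 5 to 5 and 7 to 8 between higher and lower. Cycs was at 202 and 194 CPM in PARP1 WT, compared with 188 and 185 CPM in PARP1CKO (log2 fold change -0.086, SE 0.0401, adjusted p = 0.455). Without PARP1CKO replicate 1 the median over all members was -0.0077, with 33 of 74 higher, so its sign depended on that library. Among members with merged exons under 1000 bases, 27 of 36 were higher, and among the longer ones 17 of 38. Non-member genes showed no such division, with 51.6% of the short and 52.1% of the longer ones higher. Erythroid markers were higher in PARP1CKO for 4 of 4 (median log2 fold change 0.59), B cell markers for 5 of 5 (0.27), T and NK cell markers for 3 of 3 (0.45) and osteoclast markers for 3 of 5 (0.44). Immature myeloid markers were lower for 7 of 10 (-0.067), basophil and mast cell markers for 4 of 5 (-0.18), and macrophage markers divided 3 to 3. Of all these 0 passed the adjusted test, and their part in the members' values was not tested.

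After deletion of PARP2, most members lay slightly above their WT level, by amounts that passed the adjusted test for no single gene. In PARP2 WT the members summed to 7701 ± 97.1 CPM, and in PARP2CKO to 7933 ± 225 CPM (mean ± SD, n = 2). The libraries, at 7769 and 7632 against 8092 and 7774 CPM, did not overlap but nearly touched. The median log2 fold change of the members was 0.042 (all genes -0.0014), 64 of 74 were higher (86.5%, beside 49.3% of all genes), and 61 of 74 lay within 0.1 of 0. By the same test 0 members passed (smallest adjusted p = 0.888), where 0.0530% of all genes did, and DESeq2 and the likelihood-ratio test called 0. Unadjusted p-values under 0.05 were found for 7 members (9.46%), all higher, beside 4.83% of all genes. This count was 0 without PARP2CKO replicate 1, 0 without PARP2 WT replicate 2 and 0 with library size alone. Both PARP2CKO libraries lay above both WT libraries for 34 members (45.9%) and below them for 3 (4.05%), and among all genes the shares were 18.4% and 18.8%.

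The excess of higher members rested largely on PARP2CKO replicate 1. In that library the median member stood 0.10 above its mean over the 8 libraries on the log2 scale, and 51 of 74 members had their highest value there. In PARP2CKO replicate 2 the median member stood at 0.034, the same as in PARP2 WT replicate 1 (0.034) and near PARP2 WT replicate 2 (0.016). Without PARP2CKO replicate 1 the median log2 fold change was 0.018 with 45 of 74 higher, and without replicate 2 it was 0.073 with 66 higher. Scaled by library size alone, the median was 0.015 and that of all genes -0.027, with 49 members higher. In the same contrast 0 cell-type markers passed the adjusted test, and basophil and mast cell markers were lower for 5 of 5 (median log2 fold change -0.48), erythroid markers for 3 of 4 (-0.52), T and NK cell markers for 3 of 3 (-0.39), B cell markers for 3 of 5 (-0.12), and immature myeloid markers for 6 of 10 (-0.15, with 2 at an unadjusted p under 0.05). Osteoclast markers were higher for 4 of 5 (0.27), and macrophage markers divided 3 to 3, with a median of 0.0039. At an unadjusted p under 0.05, Prss34 of the basophil list and Hbb-bs of the erythroid list were also lower, and Mertk of the macrophage list was higher. Their part in the members' shift was not tested.

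Among the 7 members with an unadjusted p under 0.05, 3 belong to complex IV, 2 to complex I and 2 to complex V. Cox5a, on chromosome 9, encodes a matrix-side subunit of complex IV and was at 58.2 and 56.9 CPM in PARP2 WT and at 63.6 and 62.0 CPM in PARP2CKO. Its log2 fold change was 0.13 (SE 0.0425, adjusted p = 0.888), and 41.7% of its exon bases overlap an antisense transcript, Gm26631. Atp5g3 went from 109 and 101 to 127 and 113 CPM, a log2 fold change of 0.19 (SE 0.0847) that ranged from 0.10 to 0.28 as single libraries were left out. Atp5k, the small subunit e at the membrane face of the ATP synthase, went from 42.3 and 37.7 to 45.5 and 43.8 CPM (log2 fold change 0.16, or 0.082 to 0.24 as single libraries were left out). Ndufs3, a core subunit of complex I, went from 33.0 and 32.1 to 36.7 and 34.7 CPM, and Cox7b, of complex IV, from 103 and 96.2 to 112 and 106 CPM (both 0.13 on the log2 scale). For Cox7b this ran from 0.085, without PARP2 WT replicate 2, to 0.18. Ndufb8 and Cox7a2 both had a log2 fold change of 0.11, which ran from 0.11 to 0.12 for Ndufb8 and from 0.044, without PARP2CKO replicate 1, to 0.17 for Cox7a2. All 7 had groups that did not overlap, and for each the adjusted p was at least 0.888.

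Cox5b had the largest log2 fold change of a member, 0.23 (SE 0.112, adjusted p = 0.954), and is named after its values were seen. It was at 112 and 106 CPM in PARP2 WT and at 127 and 129 CPM in PARP2CKO, higher in both. All 10 genes of complex IV and all 4 of complex II were higher in PARP2CKO, with medians of 0.075 and 0.054, as were 29 of 35 of complex I (0.041), 7 of 8 of complex III (0.055) and 13 of 15 of complex V (0.039). The 3 members below WT in both libraries were Uqcrb, Ndufs5 and the core complex I gene Ndufv2. By length, 30 of 36 members under 1000 bases and 34 of 38 longer ones were higher. Cycs, at 190 and 193 against 189 and 196 CPM, overlapped between the groups.

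**Figure D4:**
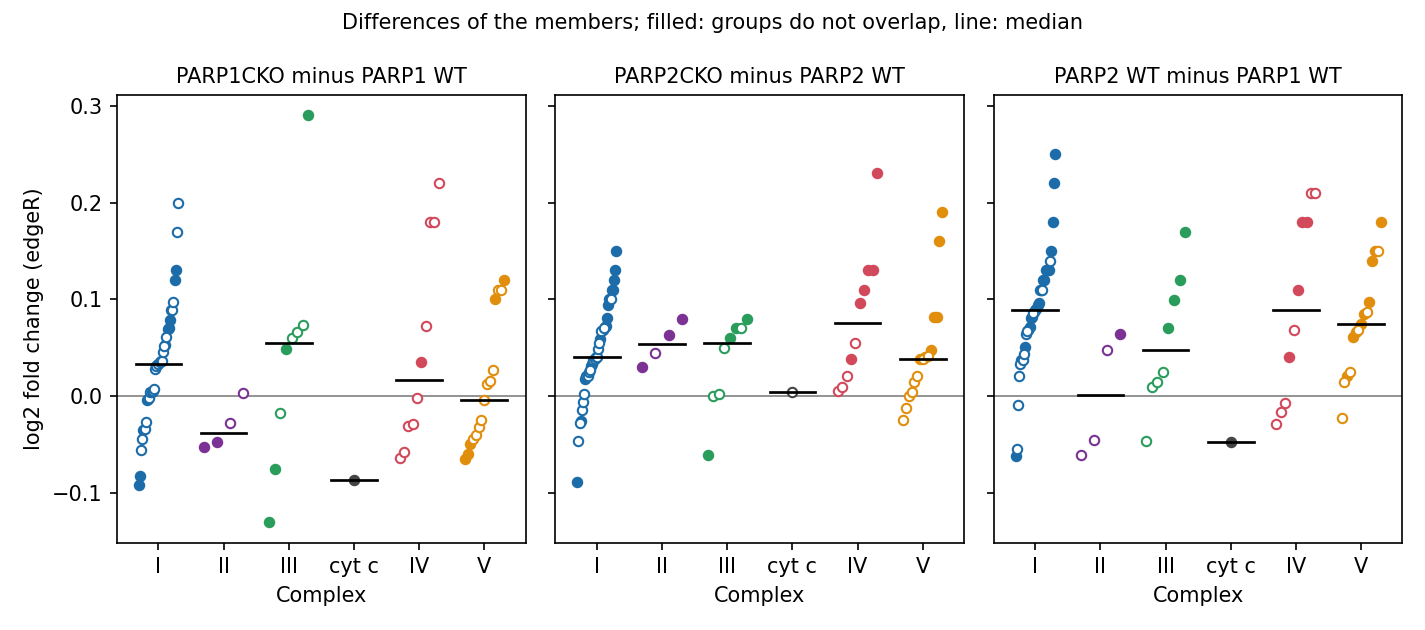
log2 fold change (edgeR) of each subunit gene by complex in 3 comparisons, with filled points where the libraries of the groups do not overlap and a bar at the median of each complex. Points scatter around 0 for PARP1CKO against PARP1 WT and lie mostly above 0 for PARP2CKO against PARP2 WT and for PARP2 WT against PARP1 WT, nearly all within 0.2. Atp5sl is not drawn.

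The difference between the deletion effects, taken as the PARP2 effect minus the PARP1 effect, was tested as a contrast of its own. The median over the members was 0.023 (all genes -0.007), 47 of 74 were above 0, and 0 passed the adjusted test (smallest adjusted p = 0.616), beside 0.0152% of all genes. DESeq2 and the likelihood-ratio test called 0. Unadjusted p-values under 0.05 were found for 3 members (4.05%), beside 7.69% of all genes, a count that ran from 0 without PARP2 WT replicate 2 to 11 without PARP1 WT replicate 2. These were Uqcrc2 (0.13, SE 0.0511), Ndufs6, an accessory subunit of complex I that carries zinc (0.19), and Ndufs1 (0.12). Uqcrc2 lay at 147 and 144 CPM in PARP2 WT and at 145 and 147 CPM in PARP2CKO, so its groups overlapped there. Ndufs6 was at 46.6 and 49.9 against 46.6 and 44.0 CPM in the PARP1 line and at 47.8 and 45.1 against 49.8 and 49.5 CPM in the PARP2 line, WT first. The median changed sign without PARP1CKO replicate 2 (-0.0028) and without PARP2CKO replicate 1 (-0.0016), and no difference between the deletions was detectable in these genes with 2 libraries a group.

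The largest median difference of the members was that between the WT groups, which were not compared with the deletion effects by a test. Compared with PARP1 WT, 62 of 74 members were higher in PARP2 WT (83.8%, beside 50.4% of all genes), with a median log2 difference of 0.078 (all genes 0.0013). Scaled by library size alone, the median was 0.039 and that of all genes -0.038, with 52 members higher. The sum over the members was 7769 and 7632 CPM in PARP2 WT against 7275 and 7433 CPM in PARP1 WT, without overlap. Both PARP2 WT libraries lay above both PARP1 WT libraries for 40 members (54.1%, where 26.7% of all genes did) and below them for 2 (2.7%, where 25.2% did). Unadjusted p-values under 0.05 were found for 12 members (16.2%), all higher in PARP2 WT, beside 18.9% of all genes, and 1 member (1.35%) passed the adjusted test, beside 3.16% of all genes. The unadjusted count was 4 without PARP2 WT replicate 1, 8 without PARP2 WT replicate 2 and 20 without PARP1 WT replicate 2. This comparison shares its libraries with the deletion contrasts, and the floxed gene, the mouse line and any difference in handling cannot be told apart in it.

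The gene that passed was Ndufs8, on chromosome 19 (GRCm38 3908863 to 3912774, minus strand), which encodes a core subunit of complex I that binds iron-sulphur clusters. It was at 64.0 and 65.5 CPM in PARP1 WT and at 73.6 and 77.1 CPM in PARP2 WT, and the replicates of each group lay far closer together than the groups. The log2 difference was 0.22 (SE 0.0401), and edgeR's adjusted p was 0.0256. The deletions left it near its own line's level, at 67.3 and 67.1 CPM in PARP1CKO and at 73.9 and 72.1 CPM in PARP2CKO. DESeq2 and the likelihood-ratio test also called Ndufs8. The call was lost when the fit held only the 4 WT libraries (adjusted p = 0.0528), with library size alone (0.0539), and when any of the 4 WT libraries was left out (0.0602 to 0.188). The difference itself stayed between 0.18 and 0.25 as libraries were left out.

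Next to Ndufs8 stood Cox5a, at 49.9 and 51.3 CPM in PARP1 WT against 58.2 and 56.9 CPM in PARP2 WT (log2 difference 0.18, SE 0.0432, adjusted p = 0.0577). It passed in the likelihood-ratio test (0.0215), in the fit without a filter on low counts (0.039), and without PARP1CKO replicate 1 (0.0482) or replicate 2 (0.0488). DESeq2 gave an adjusted p of 0.142, and the fits without 1 of the WT libraries gave 0.0945 to 0.264. Atp5e was at 24.3 and 23.2 against 26.8 and 26.9 CPM, also 0.18 higher on the log2 scale. Ndufs7, an iron-sulphur core subunit of complex I next to the ubiquinone site, showed the largest difference, 0.25, from 30.2 and 36.3 to 39.8 and 39.6 CPM, and the first of these values is the low PARP1 WT replicate 1. Without that library its difference was 0.13. The log2 differences of Cox5b and Cox8a, both 0.21 in this comparison, were 0.011 and 0.0021 without that library. Without PARP1 WT replicate 2, with the low library as the one PARP1 WT sample and assumed to vary like the other groups, they were 0.46 (adjusted p = 0.012) and 0.45 (adjusted p = 0.025).

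By complex, 32 of 35 genes of complex I and 14 of 15 of complex V were higher in PARP2 WT, with medians of 0.089 and 0.075, as were 7 of 8 of complex III and 7 of 10 of complex IV. Complex II was divided 2 to 2, with Sdhb and Sdhd higher and Sdha and Sdhc lower, and Cycs was lower in both PARP2 WT libraries. All 7 core genes of complex I and all 5 genes of the F1 part of complex V were higher. Other measures moved with the same comparison. Non-member genes with merged exons under 1000 bases had a median log2 difference of 0.052 (62.1% of 767 higher), and those of 1000 bases or more -0.0014. Members under 1000 bases had a median of 0.088 and longer members 0.064. The sums of B cell and erythroid markers given above were lower in the PARP2 line, and 5 of 5 tested B cell markers and 1 of 4 erythroid markers (Hba-a1 and Hba-a2 taken once) passed the adjusted test. Basophil and mast cell markers were lower in PARP2 WT for 5 of 5 (median log2 difference -0.73), all 5 at an unadjusted p under 0.05, and 0 passed the adjusted test. Osteoclast markers were higher for 4 of 5 (0.67). Macrophage markers were higher in PARP2 WT for 6 of 6 (median log2 difference 0.24), and 1 of them, 1 of 10 immature myeloid and 1 of 5 osteoclast markers passed. The part of transcript length and of cell makeup in the members' differences was not tested.

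**Figure D5:**
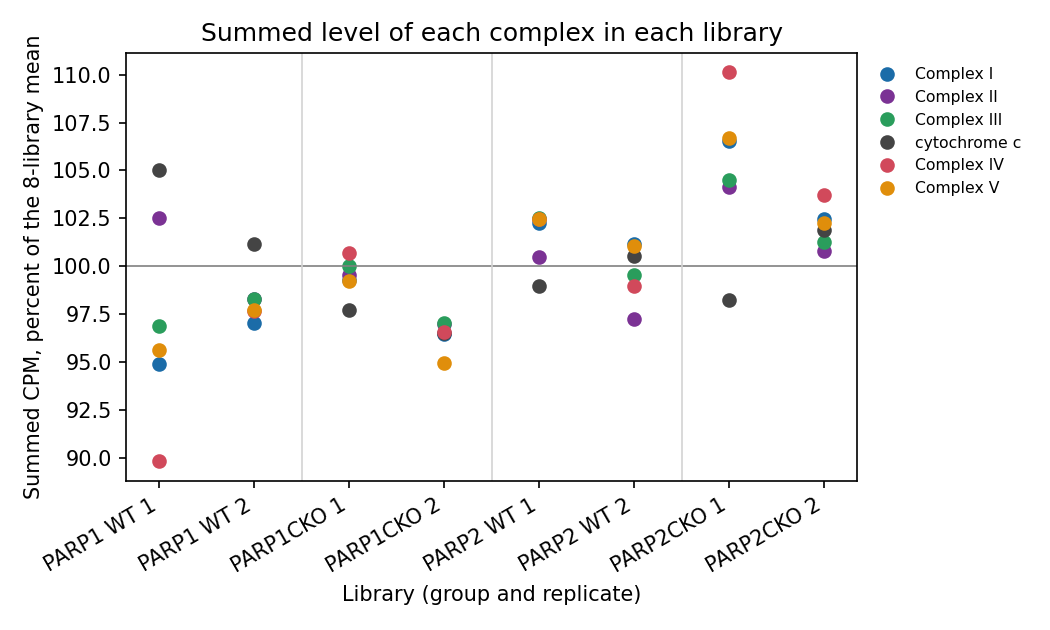
Summed CPM of each complex and of Cycs in each of 8 libraries, as a percentage of its mean over the libraries, on an axis that does not start at 0. Complexes I and V lie below 100% in all 4 libraries of the PARP1 line, WT and PARP1CKO, and above it in all 4 libraries of the PARP2 line. Complex IV is lowest in PARP1 WT replicate 1, and Cycs is highest there.

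Seen by library, the members' median deviation from the mean of 8 libraries was -0.050 and -0.041 in PARP1 WT, -0.013 and -0.059 in PARP1CKO, on the log2 scale. It was 0.034 and 0.016 in PARP2 WT, then 0.10 and 0.034 in PARP2CKO. All 4 libraries of the PARP1 line lay below 0 and all 4 of the PARP2 line above it. Short non-member genes had medians of -0.028, -0.019, -0.0056, -0.027, 0.029, 0.027, 0.047 and 0.018 in the same order. They lay on the same side of 0 in every library and were closer to it than the members in 7 of 8. The exception was PARP2 WT replicate 2, at 0.027 against 0.016.

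Members were also divided by these promoter letters. For the 21 members with the NRF1 letters the median log2 fold change was 0.016 after PARP1 and 0.041 after PARP2 deletion, and for the 42 members without them 0.032 and 0.054. The 16 members with the ETS letters had medians of 0.063 and 0.064, and the 47 without them 0.027 and 0.042. The 8 members with the YY1 letters had a median of -0.037 after PARP1 deletion, with 3 higher, and of 0.033 after PARP2 deletion, with 7 higher. The 55 without them had medians of 0.032 and 0.05. In the comparison of the WT groups, the medians were 0.068 with and 0.088 without the NRF1 letters. They were 0.1 with and 0.081 without the ETS letters, and 0.031 with and 0.087 without the YY1 letters. These differences are descriptions with no test.

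Genes that build or control the complexes gave no call. Of 45 listed assembly factors, 41 were in the table and tested, and 0 passed the adjusted test in any of the 4 contrasts. Their median log2 difference was 0.015 in PARP1CKO, 0.022 in PARP2CKO and 0.00073 between the WT groups, where 21 of 41 were higher in PARP2 WT. Their summed level was 808 to 848 CPM in the 8 libraries. Unadjusted p-values under 0.05 were found for 3 of the 41 in PARP1CKO, 1 in PARP2CKO and 1 between the WT groups, beside 11.3%, 4.83% and 18.9% of all genes. All 13 listed regulators were tested and 0 passed, and unadjusted p-values under 0.05 were found for 0, 0 and 3 of them, the last 3 being Pprc1 and Esrra, higher in PARP2 WT, and Gabpb1, lower. Nrf1 lay between 36.8 and 39.8 CPM, Gabpa, the DNA-binding part of GABP, between 85.2 and 93.1, Yy1 between 71.0 and 79.1, and Tfam, which maintains and transcribes mitochondrial DNA, between 17.6 and 20.8 CPM. Ppargc1a, which encodes PGC-1α, had 64 counts in all libraries and at most 0.265 CPM. Esrra was at 25.7 and 26.9 CPM in PARP1 WT, then 29.8 and 27.7 CPM in PARP1CKO, 28.6 and 29.8 CPM for PARP2 WT, then 30.3 and 29.5 CPM for PARP2CKO (adjusted p = 0.448, 0.977 and 0.207 for PARP1CKO, PARP2CKO and the WT groups).

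Of 5 further measured genes of the complexes that the name rule left out, 0 passed in any contrast. They were the subunits Cox4i1, Cyc1 and Ndufab1, the supercomplex factor gene Cox7a2l and Atpif1, which encodes the inhibitor of the ATP synthase. Cox4i1, a central subunit of complex IV, lay at 218 and 213 CPM in PARP1 WT, then 224 and 224 CPM in PARP1CKO, 232 and 236 CPM for PARP2 WT, then 249 and 235 CPM for PARP2CKO. It was above PARP1 WT in both PARP2 WT libraries, with a log2 difference of 0.12 (SE 0.0415, adjusted p = 0.167). Cyc1, the cytochrome c1 of complex III, lay between 73.9 and 91.5 CPM, with its highest value in PARP2CKO replicate 1.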

How the data were processed

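Total RNA of 8 libraries (TruSeq Stranded, single-end reads of mouse IMCs) was analysed from raw gene counts. The authors made these deposited counts with fastq-mcf, TopHat2 2.0.12 on mm10 and featureCounts, and the submitters' processing notes also list Picard 1.127, FastQC 0.11.2 and edgeR. The annotation, the strand setting and the use of duplicates are not given in the sources used here, and 19 members overlap another gene on the opposite strand, so their reads may not be separated. The study's methods name edgeR on FPKM at a false discovery rate of 0.05, and here the counts themselves were tested.

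Genes were kept by filterByExpr (13197 of 24062, all 74 members among them) and tested in R 4.3.3 with the quasi-likelihood test of edgeR 4.0.16, fitted to the 8 libraries together with 1 mean per group, TMM factors (0.9647 to 1.0265) and a threshold of 0.05 on p-values adjusted by Benjamini-Hochberg over all genes. All adjusted p-values come from edgeR unless another tool is named. The contrasts were each deletion against its own WT group, the difference of the PARP2 and PARP1 effects, and PARP2 WT against PARP1 WT. Replicates differed by more than sampling noise (chi-square per gene 8.69 to 13.1). Levels per kb used merged exons or the shortest coding transcript of GENCODE M21 basic (GRCm38). Lists of markers, assembly factors and regulators were described by counts only.

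Genes were named if called in a contrast, if among the 4 with the largest log2 fold change of those with an unadjusted p under 0.05 and groups that did not overlap (for the difference, the 3 smallest p), if among the highest or lowest levels of a complex, or as isoforms, subunits of complex II, genes next to the 5 CPM limit, Parp1 or Parp2. Cox5b, Cox8a and Cycs in single contrasts, Cox5a, Ndufb8, Cox7a2, Uqcrb, Ndufs5 and Ndufv2 after PARP2 deletion, the members named as low in PARP1 WT replicate 1, and the markers and regulators mentioned, were named after their values were seen. The members and lists were chosen with earlier results of these data known. Scripts were tested on simulated data. Results were recomputed with library size alone, size factors from DESeq2, DESeq2 1.42.0 itself, the likelihood-ratio test, the 4 libraries of a contrast, no filter, 1 CPM in 2 libraries, a replicate block, other CPM limits for membership (1 and 10) and leaving out each library.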

Additional observations from a re-analysis of the deposited data

How the results depend on the processing

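For each deletion against its own WT group, and for the difference of the PARP2 and PARP1 effects, 0 members were called under every alternative. The count of members that passed between the WT groups was 1, against 0 on the 4 WT libraries, 0 with library size alone, 2 with the likelihood-ratio test, 2 without a filter, and 0 to 3 as each library was left out. The member count was 0 with the replicate block (Ndufs8, adjusted p = 0.15), with 19 members at an unadjusted p under 0.05. That fit moved the log2 difference itself, from 0.21 to 0.34 for Cox5b and from 0.21 to 0.35 for Cox8a. It therefore did not estimate the difference between the group means. The block is no pairing by design: replicate numbers are shared by 2 groups of 2 without a label of litter or day, and the correlation of same-numbered deviations was -0.19 in the PARP1 line and 0.185 in the PARP2 line. With the numbers crossed in a replicate block, an alternative added after seeing the data, 8 members were called, beside 985 of all genes. Neither block count is read as the same comparison as the main count of 1. Over all genes, calls in PARP1CKO were 14 in the quasi-likelihood test, 17 with the block, 86 with DESeq2 and 146 with the likelihood-ratio test. In PARP2CKO they were 7, 11, 27 and 39, and for the difference 2, 1, 45 and 72. Between the WT groups they were 417, 167, 551 and 910, where the 167 of the block is not for the difference between group means. Calls over all genes in that comparison were 387 on the 4 WT libraries, 410 with library size alone and 872 without a filter. The members' median log2 difference between the WT groups was 0.039 with library size alone, which moved the median of all genes to -0.038. Leaving out each library gave medians of -0.0077 to 0.038 for PARP1CKO, 0.018 to 0.073 for PARP2CKO, 0.064 to 0.086 between the WT groups and -0.0028 to 0.058 for the difference. The sign turned without PARP1CKO replicate 1 in the first, and without PARP1CKO replicate 2 or PARP2CKO replicate 1 (-0.0016) in the last. No gene whose log2 fold change was recomputed under the alternatives changed direction, and not every gene named was recomputed. The cause of these shifts was not tested. The median SE of a member's log2 fold change was 0.0528 for PARP1CKO, 0.0522 for PARP2CKO and 0.0741 for the difference, which limits what 2 libraries a group can show.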
